A study of Arabidopsis thaliana with 6 samples.

Results

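AT1G60200 and AT4G36980 encode 2 splicing-related proteins of Arabidopsis thaliana whose transcripts were abundant in RNA precipitated with ASI1 and nearly absent from the mock precipitation of wild type (WT). Of 6351 genes listed in 1 or both of the deposited tables, 2323 were listed in both. AT1G60200 and AT4G36980 were chosen from the 2323 as splicing-related genes. The rule asked for over 500 counts in both ASI1 RIP libraries and under 20 in both WT RIP libraries. Because these counts chose the genes, their levels in the precipitated libraries are given as a description; the folds and whether a gene was called are printed for them, and no support is drawn from either. RNA immunoprecipitation with sequencing (RIP-seq) used an anti-Flag antibody on whole Col-0 seedlings of 14 d. The seedlings were kept with 1% sucrose at 22 °C under 16 h light and 8 h dark and crosslinked with 0.5% formaldehyde. The groups were ASI1 RIP (2 libraries), ASI1 input (1 library), WT RIP (2 libraries) and WT input (1 library). The genotype labels read ASI1 and WT, and the sources used here do not name the construct that carries the tag, its promoter or the number of plant lines. Nothing in the labels says that the replicates were separate cultures, so the spread between RIP replicates may be technical.

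RBM25 proteins carry an RNA recognition motif and a PWI domain, a small nucleic acid binding fold. In human cells RBM25 works with the U1 small nuclear ribonucleoprotein in the choice of 5′ splice sites, and in Arabidopsis RBM25 acts on the splicing of abscisic acid signalling transcripts such as HAB1. AT4G36980 is annotated as a CLK4-associating serine/arginine-rich protein; its mammalian namesake binds CLK4, a kinase that phosphorylates SR proteins. SR proteins bind exonic sequences and recruit the spliceosome, and in plants many of their own transcripts are alternatively spliced. ASI1 is an RNA-binding protein that works together with AIPP1 and EDM2 on genes whose introns hold heterochromatin, and it promotes their full-length transcripts.

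AT1G60200 lies on chromosome 1 (22200694 to 22205400, minus strand) and AT4G36980 on chromosome 4 (17433601 to 17437217, minus strand) in the TAIR10.1 annotation, and each has 4 annotated transcript models. In AT1G60200 the models differ in the first intron. Model 1 removes it whole (22203750 to 22204826, 1077 bp), model 2 removes the first 273 bp, model 4 the last 129 bp, and model 3 retains it. The coding sequence is 2700 bases in model 1 and 2253 in the other models, whose coding part starts 1683 bp from the 5′ end of the gene against 159 bp in model 1. The deposited counts are per gene, so which model was recovered is not known from them. The junctions that separate the models are shown here 5′ to 3′ on the transcribed strand, with exon bases in capitals and intron bases in lower case.
AT1G60200 donor of models 1 and 2 (chr1:22204815-22204836): CCTCCTCATGgtgggttcttct
AT1G60200 acceptor of model 2 (chr1:22204544-22204565): tttctcctacagCGTCTTGATT
AT1G60200 donor of model 4 (chr1:22203867-22203888): CTAGTTTGTGgtaacaatacaa
AT1G60200 acceptor of models 1 and 4 (chr1:22203740-22203761): ttgtttatgcagGGCTTCTCCG

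In AT4G36980 the models differ at the 3′ end of the coding part and at 2 pairs of tandem splice sites. Model 2 retains an intron that models 1 and 3 remove as 177 bp and model 4 as 174 bp. Its coding sequence ends within the retained intron and is 1524 bases long, against 1668, 1665 and 1671 bases in models 1, 3 and 4. Model 3 uses an acceptor that lies 1 codon further into the exon than that of models 1, 2 and 4. The sites are shown because each pair differs by a single codon, with the same use of capitals.
AT4G36980 donor of models 1 and 3 (chr4:17434308-17434329): CACCACCGAGgttgttaataaa
AT4G36980 donor of model 4 (chr4:17434305-17434326): CACCGAGGTTgttaataaagtt
AT4G36980 acceptor of models 1, 3 and 4 (chr4:17434133-17434154): ttttgtctacagAAGACACAGG
AT4G36980 acceptor of models 1, 2 and 4 (chr4:17435618-17435639): atggaaatgtagAAGAAACTAA
AT4G36980 acceptor of model 3 (chr4:17435615-17435636): gaaatgtagaagAAACTAAGTC

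**Figure D1:**
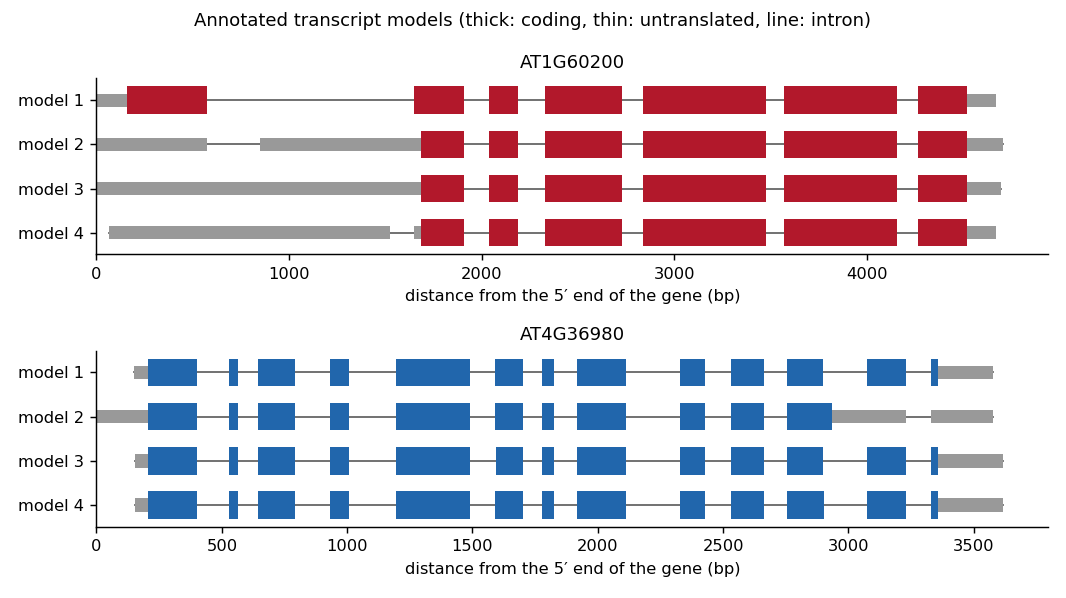
Annotated transcript models of both genes, drawn from the 5′ end of each gene in bp, with coding parts thick, untranslated parts thin and introns as lines. The first intron of AT1G60200, 1077 bp in model 1, is wholly or partly exonic in models 2 to 4, and model 2 of AT4G36980 ends its coding part early.

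The 2 genes share purine-rich coding sequence and differ in intron size. Purines made up 57.3% of the longest coding sequence of AT1G60200 and 58.9% of that of AT4G36980, against a median of 52.4% over 2292 protein-coding genes listed in both tables; 10.6% and 6.37% of those genes had a share at least as high. The hexamer GAAGAA, a purine-rich exonic enhancer known from animals, was searched on the coding strand, with overlaps counted. It occurred 10 times in AT1G60200 and 7 times in AT4G36980, and 80.5% of the coding sequences held it at least once. Per kb this was 3.70 and 4.19 matches, against a median of 1.36, and 311 and 230 of the 2292 genes had at least as many. CGGGCA, a motif bound by human RBM25, occurred once in AT1G60200 and was not among the letters of AT4G36980, and 10.3% of the coding sequences held it. GC content was close to the median of 45.8%, at 46.5% and 46.4%. The longest intron of AT1G60200 (1077 bp) was matched or exceeded in 2.36% of the genes, whereas that of AT4G36980 (213 bp) was below the median of 303 bp. The annotation used lists no other gene and no repeat feature inside either gene. The most purine-rich 60 bases within 1 exon that is coding in all models are shown, with the longest run of purines in capitals, 27 bases in AT1G60200 and 19 in AT4G36980.
AT1G60200 coding window, 93.3% purine (chr1:22202268-22202327, minus strand): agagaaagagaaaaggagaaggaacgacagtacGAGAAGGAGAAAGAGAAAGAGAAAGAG
AT4G36980 coding window, 78.3% purine (chr4:17435737-17435796, minus strand): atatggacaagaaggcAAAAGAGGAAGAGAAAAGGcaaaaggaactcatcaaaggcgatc

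Depth and rRNA content limit every comparison. Listed counts ranged from 1804637 to 2566368 in the ASI1 RIP libraries, and were 4461715 in ASI1 input, 119916 and 525126 in WT RIP and 6383274 in WT input. rRNA genes held 79.9% to 82.5% of the counts of the RIP libraries but 99.5% of those of ASI1 input and 99.0% of WT input. Levels are therefore given as CPM of the counts outside rRNA, which scales each library to the same total. Counts outside rRNA numbered 448561 and 362058 in ASI1 RIP, 23810 in ASI1 input, 23304 and 103549 in WT RIP and 61644 in WT input. The transcript of ASI1 itself (AT5G11470) gave 114 and 201 counts in ASI1 RIP and 2.54 in ASI1 input; its level in WT is not analysed here. All 5 shoot markers (RBCS1A, CAB1, CAB2, CAB3 and RCA) were listed for both genotypes; together they held 8159 and 4546 CPM outside rRNA in ASI1 RIP and 17449 in ASI1 input, against 9052 and 28812 in WT RIP and 32172 in WT input. CAB1, CAB2 and CAB3 are near-identical copies among which counting may have split reads. Of 3 root markers, only PYK10 was listed in both tables. PYK10 had 454 and 170.2 CPM outside rRNA in ASI1 RIP and 1900.3 in ASI1 input, against 312 and 193 in WT RIP and 685 in WT input. RCI3 was listed for WT alone, with 44.6 and 862 in WT RIP and 16.7 in WT input. The shoot sums were lower in ASI1 than in WT in RIP and in input, the direction opposite to that of the 2 splicing genes; the part of tissue makeup in the results was not tested.

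AT1G60200 was among the most abundant transcripts of the ASI1 precipitation. Its expected counts were 2697 and 1583 in ASI1 RIP and 28.8 in ASI1 input, against 0 and 6.30 in WT RIP and 47.4 in WT input. Both ASI1 RIP libraries stood above every other library, and both WT RIP libraries stood below the inputs in CPM outside rRNA. As CPM outside rRNA it had 6013 and 4373 in ASI1 RIP and 1209 in ASI1 input, against 0 and 60.8 in WT RIP and 769 in WT input. Among genes outside rRNA it ranked 5 of 3202 and 8 of 2910 in ASI1 RIP replicates 1 and 2, but 75 of 3737 in the ASI1 input. In the WT input it ranked 282 of 4289, and in WT RIP replicate 2 it ranked 1106 of 4036. The mean over ASI1 RIP was 5193 ± 1159.7 CPM outside rRNA and over WT RIP 30.4 ± 43.0 (SD, n = 2 each). At the mean ASI1 RIP level, WT RIP replicate 1 would hold 121 counts, where 0 were listed, and replicate 2 would hold 538, where 6.30 were listed. The same counts chose the gene, so no support is drawn from this gap. The count of 0 in WT RIP replicate 1 corresponds to a floor of 129 CPM outside rRNA at 3 counts; its exact 95% interval reaches 158 (both cover counting error only).

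AT4G36980 was less abundant, with nearly equal counts in the ASI1 RIP replicates. Its expected counts were 755 and 748 in ASI1 RIP and 21.6 in ASI1 input, against 1.04 and 1.05 in WT RIP and 16.5 in WT input. A single read was worth 1.03 to 1.05 counts in these tables, so each WT RIP value is 1 read. As CPM outside rRNA it had 1683 and 2065 in ASI1 RIP and 907 in ASI1 input, against 44.6 and 10.1 in WT RIP and 267 in WT input. Here too both ASI1 RIP libraries lay above all other libraries, and both WT RIP libraries lay below both inputs. It ranked 46 of 3202 and 39 of 2910 in ASI1 RIP, and 124 of 3737 in the ASI1 input. The means were 1874 ± 271 CPM outside rRNA in ASI1 RIP and 27.4 ± 24.4 in WT RIP (SD, n = 2 each). At the mean ASI1 RIP level, the WT RIP libraries would hold 43.7 and 194 counts, where 1 read each was listed. Those counts chose this gene too, and no support is drawn from the gap.

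**Figure D2:**
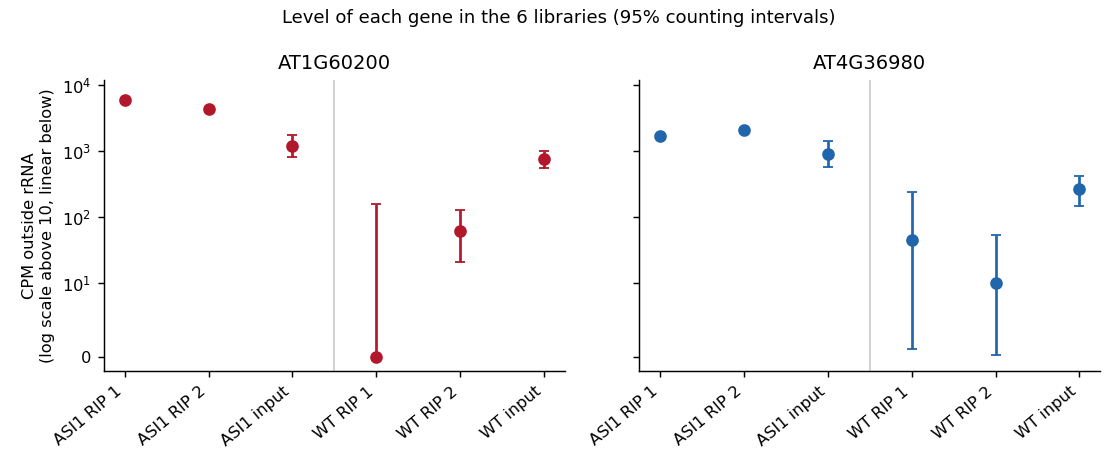
Level of AT1G60200 and AT4G36980 in each of the 6 libraries, in CPM outside rRNA on a scale that is logarithmic above 10 and linear below, with exact 95% binomial intervals for counting error. Both ASI1 RIP points lie above their input (1209 and 907) and both WT RIP points below theirs (769 and 267).

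Per kb of exonic sequence, over an exonic length of 4124 bp for AT1G60200 and 2310 bp for AT4G36980, AT1G60200 had 1458 and 1060.3 CPM outside rRNA per kb in ASI1 RIP and 293 in ASI1 input, against 0 and 14.7 in WT RIP and 186 in WT input. AT4G36980 had 728 and 894 CPM outside rRNA per kb in ASI1 RIP and 393 in ASI1 input, against 19.3 and 4.39 in WT RIP and 116 in WT input. Per kb, AT1G60200 was thus the higher of the 2 in both ASI1 RIP libraries and in the WT input. AT4G36980 was the higher in the ASI1 input, where it had 21.6 counts and AT1G60200 28.8.

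Setting ASI1 RIP against WT RIP asks which RNAs came down with ASI1 beyond the background of the antibody. As a share of counts outside rRNA, pooled over replicates, AT1G60200 was 112-fold higher in ASI1 RIP than in WT RIP (4280 against 6 counts). AT4G36980 was 118-fold higher (1502 against 2 counts). The direction and much of the size of both folds are fixed by the count thresholds that chose the genes. Without WT RIP replicate 2 AT1G60200 was at least 41.0-fold higher (against a floor of 3 counts in WT RIP replicate 1) and AT4G36980 43.2-fold, and without WT RIP replicate 1 AT4G36980 was 192-fold higher. In the fit of all 6 libraries with edgeR's quasi-likelihood model, the log2 fold was 6.47 (SE 2.84) for AT1G60200 and 5.95 (SE 3.28) for AT4G36980, beside a median of 1.33 over the 2312 genes tested. Relative to that median the folds were 5.15 and 4.62. No gene was called by edgeR in this comparison (0%; the threshold was an adjusted p of 0.05 together with a log2 fold of 1 or more in size, and 18 genes had an unadjusted p below 0.05), so neither of these was. With DESeq2 17 genes were called (0.732% of 2323), 2 higher and 15 lower, and AT1G60200 was 1 of the 2 higher ones (log2 fold 6.02, SE 2.05). Nothing is read from that call, since the same counts chose the gene.

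In CPM outside rRNA both genes lay above their input in ASI1 RIP and below it in WT RIP. AT1G60200 stood at 4.97 and 3.62 times the input in ASI1 RIP replicates 1 and 2, and at 0 and 0.0791 of the input in WT RIP. AT4G36980 stood at 1.86 and 2.28 times the input in ASI1 RIP, and at 0.167 and 0.0379 of the input in WT RIP. In CPM of all listed counts, rRNA included, AT1G60200 had 1051 and 877 in ASI1 RIP and 6.45 in ASI1 input, against 0 and 12.0 in WT RIP and 7.42 in WT input. On that scale WT RIP replicate 2 lay above its input, and for AT4G36980 WT RIP replicate 1 did (8.67 against 2.58 in WT input, on 1 read). Of these 2 CPM scales, only that of counts outside rRNA therefore put both WT RIP replicates below their input. In the edgeR fit, the log2 fold of WT RIP over WT input was -2.27 for AT1G60200 without WT RIP replicate 1. It was -1.99 for AT4G36980 without WT RIP replicate 2.

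The edgeR log2 folds of ASI1 RIP over ASI1 input were 3.14 (SE 3.21) for AT1G60200 and 2.12 (SE 3.48) for AT4G36980, beside a median of 1.12 over all genes. With the rRNA genes left out they were 1.92 (SE 3.29) and 0.86 (SE 3.86), beside a median of -0.05, and with the ASI1 table fitted alone 1.60 (SE 0.646) and 0.52 (SE 0.861), beside a median of -0.06. Those of WT RIP over WT input were -3.10 (SE 2.71) and -2.44 (SE 3.26), beside a median of -0.20. With the WT table fitted alone neither gene passed the low-count filter, so that fit gives no fold for them. The difference of the enrichments, ASI1 minus WT, was 6.24 (SE 4.32) for AT1G60200 and 4.56 (SE 4.84) for AT4G36980, beside a median of 1.13. Of the 6 values from the fit of all 6 libraries only 2, both of AT1G60200, exceeded their standard error in size: WT RIP over WT input and the difference. Only the 18S rRNA gene AT3G41768 was called by edgeR in each RIP over input comparison (0.0433% of 2312 genes), with 3 genes at an unadjusted p below 0.05 for ASI1 and 7 for WT. DESeq2 called 2 genes for ASI1 (0.0861% of 2323), neither of them a splicing gene named here, and 0 for WT (62 below an unadjusted 0.05). The difference gave 0 calls with edgeR (1 below an unadjusted 0.05) and 0 with DESeq2 (18 below it). In the authors' deposited table for ASI1 the log2 fold of RIP over input was 2.22 for AT1G60200 and 1.16 for AT4G36980, and in the authors' deposited table for WT it was -3.31 and -2.94, each with an FDR of 1.

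The inputs were not used to choose the genes. AT1G60200 held 29 of the rounded counts in ASI1 input and 47 in WT input, a ratio of shares of 1.60 (exact 95% interval 0.970 to 2.59). AT4G36980 held 22 in ASI1 input and 16 in WT input, a ratio of 3.56 (1.79 to 7.25). Over all listed counts, rRNA included, the ratio was 0.883 (0.536 to 1.43) for AT1G60200, the opposite direction, and 1.97 (0.987 to 4.01) for AT4G36980. With 1 library a genotype there is no replicate check and no test, and the intervals cover counting error only, for reads that may not be independent molecules. In shares outside rRNA, over the 351 genes with at least 10 counts in both inputs the median ratio was 1.81 and the middle range 1.09 to 2.40; 216 of them had a ratio at or above that of AT1G60200 and 23 at or above that of AT4G36980. AT1G60200 thus lay within the middle range of the inputs and AT4G36980 above it. In whole seedlings, fewer cells of a type and less RNA per cell cannot be told apart.

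The gene choice rests on thresholds in raw counts. Of 2319 genes outside rRNA listed for both genotypes, 44 had over 500 counts in both ASI1 RIP libraries and 7 of these had under 20 in both WT RIP libraries. AT1G60200 had the highest lower ASI1 RIP count of the 7 (1583) and AT4G36980 the 4th highest (748); the last gene inside was DIC2 with 603. Just outside were AT3G52060, with 487 and 592 counts in ASI1 RIP and 1.04 and 0 in WT RIP, and AT1G20390, with 1029.7 and 546 in ASI1 RIP and 2.08 and 43.0 in WT RIP. Low WT counts were common: 1656 of the 2319 genes had under 20 in both WT RIP libraries.

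**Figure D3:**
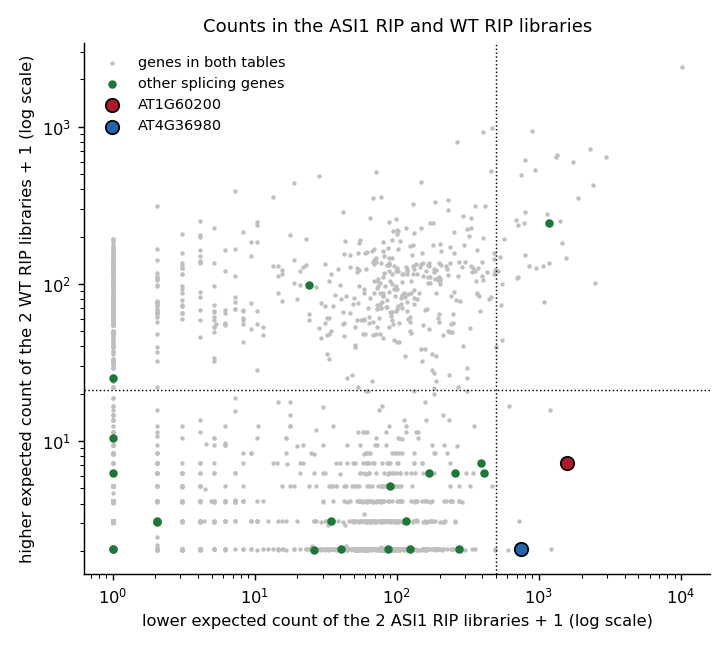
Each point is a gene listed in both tables, outside rRNA, with the lower of its 2 ASI1 RIP counts across and the higher of its 2 WT RIP counts up, both plus 1 on log scales; dotted lines mark 500 and 20 counts. AT1G60200 and AT4G36980 lie in the lower right, and of the 21 other splicing genes shown in green none does. Only 7 of all 2319 genes lie there, and the same thresholds chose the 2 genes, so nothing is read from their position.

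The 5 genes with the most similar profile were found for each gene. Likeness was the root mean square difference of centred log2(CPM outside rRNA + 10) over the 6 libraries, among 2263 genes with at least 20 counts in 1 or more libraries. Nearest to AT1G60200 were the pseudogene AT1G58561 (0.69), MPK18 (0.84), the SR protein gene RS41 (0.89), AT1G58602, which is the disease resistance gene RPP7 (0.89), and VCS (0.95), a decapping factor. AT1G58561 is annotated within the first intron of RPP7, a known target of ASI1, so these neighbours share a locus. RS41 had 469 and 273 counts in ASI1 RIP and 5.14 in ASI1 input, against 0 and 1.05 in WT RIP and 10.3 in WT input. Nearest to AT4G36980 were AT3G52060 (0.45), SAC3A (0.56), of a family that works in mRNA export, AT4G39680 (0.60), which encodes a SAP domain protein, DIC2 (0.65), a dicarboxylate carrier, and AT3G56590 (0.67). AT4G39680 had 318 and 208 counts in ASI1 RIP and 7.20 in ASI1 input, against 1.04 and 0 in WT RIP and 10.3 in WT input. The 2 splicing genes were less like each other (1.49), as the 65th nearest to AT1G60200 and the 292nd nearest to AT4G36980. All these profiles share the low counts of the WT RIP libraries, where 1 read sets the value.

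**Figure D4:**
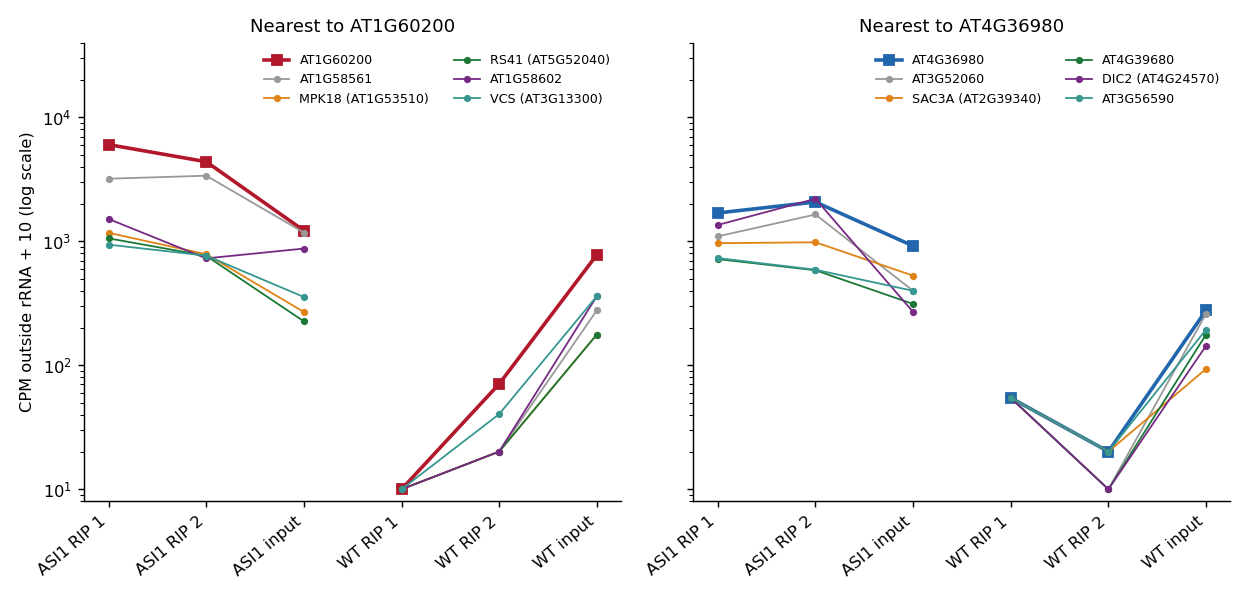
CPM outside rRNA plus 10, on a log scale, in each library for AT1G60200 and AT4G36980 (squares) and the 5 genes with the nearest profile to each (circles); lines join libraries of 1 genotype. The neighbours of AT1G60200 are all at 0 counts in WT RIP replicate 1, and those of AT4G36980 are all at 1 read there.

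Other splicing genes were given by lists of 56 genes, of which 28 were listed for ASI1, 25 for WT and 21 for both. With all 6 libraries fitted together, none of the 21 was called by edgeR in any comparison, and none had an unadjusted p under 0.05. DESeq2 called none either. This did not hold with the ASI1 table fitted alone. There edgeR called the MAC complex gene CDC5 (AT1G09770) in ASI1 RIP over ASI1 input. CDC5 had 28.2 and 0 counts in ASI1 RIP and 33.9 in ASI1 input. In ASI1 RIP over WT RIP their median log2 fold was 2.66, with 18 of 21 above 0, beside a median of 1.33 and 67.7% above 0 over all genes. In ASI1 RIP over ASI1 input the median was 0.83, beside 1.12 over all genes. In WT RIP over WT input it was -1.52, beside -0.20 over all genes. Of the 21 genes 14 reached 20 counts in each ASI1 RIP library, and 12 of these (85.7%) stayed under 20 in each WT RIP library, beside 581 of 935 (62.1%) over all genes. With the rRNA genes left out before scaling, the ASI1 RIP over WT RIP median was 1.51 for the list, with 16 of 21 above 0, and 0.35 over all genes.

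The U1 and 3′ splice site factors had the highest median log2 fold of ASI1 RIP over WT RIP of the 4 groups tested (4.23). Under each scaling tried 7 of 7 were above 0, beside 55.2% to 72.9% of all genes. In ASI1 RIP over ASI1 input their median was 1.38, beside 1.12 over all genes. With the rRNA genes left out it was 0.06, beside -0.05. U1-70K, the core protein of the U1 particle, had 412 and 551 counts in ASI1 RIP and 16.5 in ASI1 input, against 0 and 5.25 in WT RIP and 193 in WT input. The U2AF large subunit gene ATU2AF65A, which binds the polypyrimidine tract, had 390 and 509.6 in ASI1 RIP and 10.3 in ASI1 input, against 3.12 and 6.30 in WT RIP and 47.4 in WT input. Both genes thus showed high ASI1 RIP and low WT RIP values with a WT input above the ASI1 input in counts.

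Of the SR protein genes 6 of 20 were tested. In ASI1 RIP over WT RIP 5 of the 6 were above 0, beside 67.7% of all genes. Their median log2 fold was 1.79, beside 1.33 over all genes. RS41 had the largest fold of the 6 (6.25, SE 3.51), and RS2Z32 lay at -0.57. SR34 (0 and 77.3 counts), SCL30A (73.2 and 0) and RS2Z32 (147 and 0) each had 0 counts in 1 ASI1 RIP library. Scaled to counts outside rRNA 6 of the 6 were above 0, RS2Z32 included, beside 72.9% of all genes. Without the rRNA genes 4 of the 6 were, beside 55.2% of all genes. Of the alternative splicing regulators 4 of 12 were tested (median 1.48 in ASI1 RIP over WT RIP, beside 1.33 over all genes). With the rRNA genes left out their median was 0.33, beside 0.35 over all genes. The circadian RNA-binding protein gene GRP7 had 1168 and 1217 counts in ASI1 RIP and 124 in ASI1 input, against 15.6 and 245 in WT RIP and 260 in WT input. GRP8 (CCR1) had 598 and 256 in ASI1 RIP and 30.9 in ASI1 input, against 4.16 and 5.25 in WT RIP and 45.3 in WT input. In CPM outside rRNA GRP7 had 2603 and 3360 in ASI1 RIP and 5226 in ASI1 input, against 669 and 2362 in WT RIP and 4212 in WT input. GRP8 had 1333 and 707 in ASI1 RIP and 1296 in ASI1 input on that scale. GRP7 thus lay below its input in both ASI1 RIP libraries, where AT1G60200 and AT4G36980 lay above theirs. Lying above the input was not particular to those 2 genes. RS41 had 1046 and 753 CPM outside rRNA in ASI1 RIP and 216 in ASI1 input. U1-70K had 918 and 1523 against 691 in ASI1 input, and ATU2AF65A 869 and 1408 against 432. Of the MAC complex, which activates the spliceosome, 4 of 6 were tested (median 2.33 in ASI1 RIP over WT RIP, beside 1.33 over all genes). In ASI1 RIP over ASI1 input the MAC median was -0.45, beside 1.12 over all genes. There 1 of the 4 lay above 0, beside 75.2% of all genes. None of the 3 CLK family kinase genes was listed.

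Genes next to the 2 loci were sparsely listed. PUB19, on the opposite strand with its 3′ end 6 bp from that of AT1G60200, is not listed in either table; ULP1D, on the other side at 2688 bp, had 0 and 101 counts in ASI1 RIP and 3.09 in ASI1 input, and its level in WT is not analysed here. AT4G36970 is not listed either. HSF4, at 2959 bp from AT4G36980, had 80.5 and 0 counts in ASI1 RIP and 4.11 in ASI1 input, against 0 and 2.10 in WT RIP and 10.3 in WT input. Whether counting used strand is not given in the sources used here.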

How the data were processed

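For each genotype the authors deposited a table of expected counts per gene, and their CPM, for 1 input and 2 RIP libraries; it lists only genes with a value above 0 in at least 2 of the 3. The deposited log2 fold changes, mean log2 CPM, p-values and FDR are the authors' edgeR comparison of RIP with input, per the file headers. The submitters' processing notes name Salmon 0.10.2, STAR 2.6.0c and edgeR, without roles; the genome build is not given in the sources used. In each library 95.0% to 98.2% of the counts above 0 were whole multiples of 1 step, within 0.02. All identifiers (100%) matched TAIR10.1.

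Expected counts were rounded and fitted with edgeR 4.0.16 (quasi-likelihood, TMM scaling on listed totals, filterByExpr) in R 4.3.3 with limma 3.58.1, over 6 libraries and 2312 genes; p-values were Benjamini-Hochberg adjusted over all of them. The common dispersion was 2.19. DESeq2 1.42.0 was an alternative. Share ratios carry exact conditional binomial intervals. Sequences and gene models were read from the RefSeq TAIR10.1 genome and annotation. Other values came from pandas 2.3.3, numpy 2.4.6 and scipy 1.17.1 under Python 3.11.15, and figures from matplotlib 3.10.9. The named genes were both members, the 5 nearest profiles of each, the adjoining genes and the 5 list genes highest in ASI1 RIP. RS2Z32, RPP7, AT1G20390 and other genes beyond that were named after their values were seen. The members and lists were chosen with earlier results of these data known.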

Additional observations from a re-analysis of the deposited data

How the results depend on the processing

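The count rule fixed the direction of the ASI1 RIP over WT RIP folds, and few genes passed the threshold under any setting, so neither is a sign of stability. DESeq2 called AT1G60200 in ASI1 RIP over WT RIP (log2 fold 6.02) and gave AT4G36980 no adjusted p there. Leaving out 1 RIP library gave AT1G60200 folds of 5.58 to 12.84 in ASI1 RIP over WT RIP, 1.77 to 3.14 in ASI1 RIP over input, -10.66 to -2.27 in WT RIP over input and 5.41 to 12.69 in the difference; the extremes in the last 2 and the first come from leaving out WT RIP replicate 2, which leaves a count of 0. The same ranges for AT4G36980 were 4.28 to 6.76, 0.68 to 2.12, -3.27 to -1.99 and 2.96 to 5.38. The share ratio of ASI1 RIP over WT RIP ranged from 41.0 (at least, against a floor of 3 counts, without WT RIP replicate 2) to 127 for AT1G60200 and from 43.2 to 192 for AT4G36980. Over all listed counts the input ratio of AT1G60200 was 0.883 and that of AT4G36980 1.97.

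Counts of called genes were small throughout. In ASI1 RIP over WT RIP edgeR called 1 gene with DESeq2 size factors, DESeq2 called 17, and leaving out a library gave 0 to 3. In ASI1 RIP over input 2 were called with DESeq2 size factors, with scaling to counts outside rRNA and by DESeq2, 3 without the rRNA genes, 13 with the ASI1 table fitted alone (an alternative added after the data were seen), and 1 to 10 with a library left out. In WT RIP over input DESeq2 and the WT table fitted alone (also added) called 0, and leaving out a library gave 1 to 4. In the difference, DESeq2 size factors gave 1 and leaving out a library 0 to 1. With the replicate number as a block over the 4 RIP libraries the ASI1 RIP over WT RIP folds were 7.21 and 5.83 and 0 genes were called; the deviations of same-numbered libraries correlated at r = -0.00235 across 2323 genes, and with 2 numbers they were not taken as pairs. The median log2 fold of all genes in ASI1 RIP over WT RIP was 0.73 with DESeq2 size factors, 1.89 on counts outside rRNA and 0.35 without the rRNA genes, against 1.33 as reported; on these 3 settings, applied to the lists after the data were seen, 17, 19 and 16 of the 21 splicing genes were above 0.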
